A study of Mus musculus with 18 samples.

Results

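The genes described here encode proteins of the tectorial membrane and of related acellular matrices of the inner ear: Tecta, Tectb, Otog, Otoa, Ceacam16 and Matn1. The members were chosen by symbol, as all probes annotated to these 6 genes in the table of non-normalized signals. They comprised 8 of the 45281 probes on the array and 6 of its 19057 annotated genes. The samples were cells sorted from the inner ears of Atoh1/nGFP (C57BL/6) mice at postnatal day 1 (P1), so strain, age and reporter were the same in all 6 groups. In the cochlea, the groups were hair cells (HCs), epithelial non-hair cells (ENHCs) and non-epithelial cells (NECs). The same 3 cell types were taken from the vestibular system. Each group had 3 biological replicates on 1 array each, and each replicate was a pool of several animals. The gate was set on the GFP reporter and on the epithelial surface protein CD326, the product of Epcam. HCs carried both, ENHCs carried CD326 alone and NECs carried neither. ENHCs are therefore a mixture of all GFP-negative epithelium, supporting cells and nonsensory epithelium together, and NECs are a mixture of everything else in the dissected tissue.

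The tectorial membrane is a sheet of extracellular matrix that covers the hearing organ and touches the hair bundles of the outer hair cells. It consists of collagen fibrils embedded in a striated-sheet matrix of noncollagenous glycoproteins, among which the tectorins are the main building blocks. Around birth it is secreted largely by the nonsensory epithelium beside the hair cells, and the otolithic membranes and cupulae of the vestibular organs share several of its glycoproteins.

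Tecta encodes alpha-tectorin, the large tectorin, and lies on chromosome 9 (42329622 to 42401690 in the mouse assembly GRCm38.p6, minus strand). Tectb, the gene of beta-tectorin, lies on chromosome 19 (55180726 to 55196313, plus strand). Otog encodes otogelin, a glycoprotein of all acellular membranes of the inner ear (chromosome 7, 46240987 to 46311434, plus strand). Otoa encodes otoancorin, which attaches these membranes to the apical surface of nonsensory cells (chromosome 7, 121083424 to 121163093, plus strand). Ceacam16 encodes a secreted adhesion protein that binds alpha-tectorin (chromosome 7, 19852097 to 19871426). Matn1 encodes matrilin-1, known mainly as a cartilage matrix protein (chromosome 4, 130944385 to 130955476, plus strand). Otoa and Ceacam16 had 2 probes each and the other genes 1. Which exon or UTR each probe targets was not established here.

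The 100 bases before the annotated start are shown for 3 of these genes, chosen by how the values that follow differ between the organs. Otog also differed between the organs in HCs and is not shown. A link between these sequences and expression was not tested. Tecta was higher in cochlear cells of both epithelial types, Tectb changed direction between HCs and ENHCs, and Otoa differed most between the organs in HCs. The sequences are from RefSeq (GRCm38.p6), 5′ to 3′ along the gene, with matches to CANNTG or AGATAA in capitals. Tecta is chr9:42401691-42401790, minus strand, Tectb chr19:55180626-55180725, plus strand, and Otoa chr7:121083324-121083423, plus strand.
Tecta: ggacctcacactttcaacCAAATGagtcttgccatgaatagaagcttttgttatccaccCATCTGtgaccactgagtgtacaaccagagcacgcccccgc
Tectb: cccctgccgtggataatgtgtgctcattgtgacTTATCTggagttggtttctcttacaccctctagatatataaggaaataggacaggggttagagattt
Otoa: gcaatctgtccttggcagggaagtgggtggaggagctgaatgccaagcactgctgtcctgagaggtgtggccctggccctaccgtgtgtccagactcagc

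CANNTG (the E-box, which reads the same on both strands) occurred 2 times before Tecta, its first bases 82 and 41 bases before the start. AGATAA (searched on both strands, with no overlap with CANNTG here) occurred 1 time before Tectb, on the opposite strand, 67 bases before the start. TATAAA was searched on both strands as well and occurred in none of the 5 member windows found in the table. The windows of Otog, Otoa and Matn1 held none of the 3 motifs. Among all 32851 windows of the same length, 34.4% held CANNTG, 3.59% AGATAA and 5.56% TATAAA. These are matches of letters only.

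On each array 16668 to 19564 probes were detected, where detected means a detection p below 0.01 against the negative controls of the array, and the median non-normalized signal ranged from 89.2 to 121.8. Correlations between replicates of a group had a median of 0.965. All 13 listed hair cell markers were detected in HCs of both organs, against 1 to 3 on the cochlear ENHC arrays and 2 to 5 on the vestibular ENHC arrays. Epcam, the gated gene, was detected in all HC and ENHC arrays and on no NEC array. Vestibular HC replicate 2 had a summed erythroid signal of 973 over 3 probes, against 14.2 and 25.1 in the other vestibular HC replicates. Vestibular HC replicate 3 had a summed signal of 7080 over 12 markers of nonsensory epithelium, against 3720 and 4130 in the other replicates of that group. Results that rest on either array are given without it where this changed the call. In such bulk samples, fewer cells expressing a gene and less RNA per cell cannot be told apart.

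Values below are normalized signals on a linear scale after background correction, with a constant of 16 added, so that a probe with no signal reads near 20. The lowest signal called detected ranged from 34.4 to 45.9 across the arrays. Differences are on the log2 scale with their standard errors from 1 limma fit over all 18 arrays, and p-values were adjusted over all 24352 probes detected on at least 2 arrays. Of the 8 member probes, 6 met that filter: the single probes of Tecta, Tectb, Otog and Matn1 and both probes of Otoa. All 6 probes differed among the 6 groups in an F test, as did 57.3% of all probes tested.

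**Figure D1:**
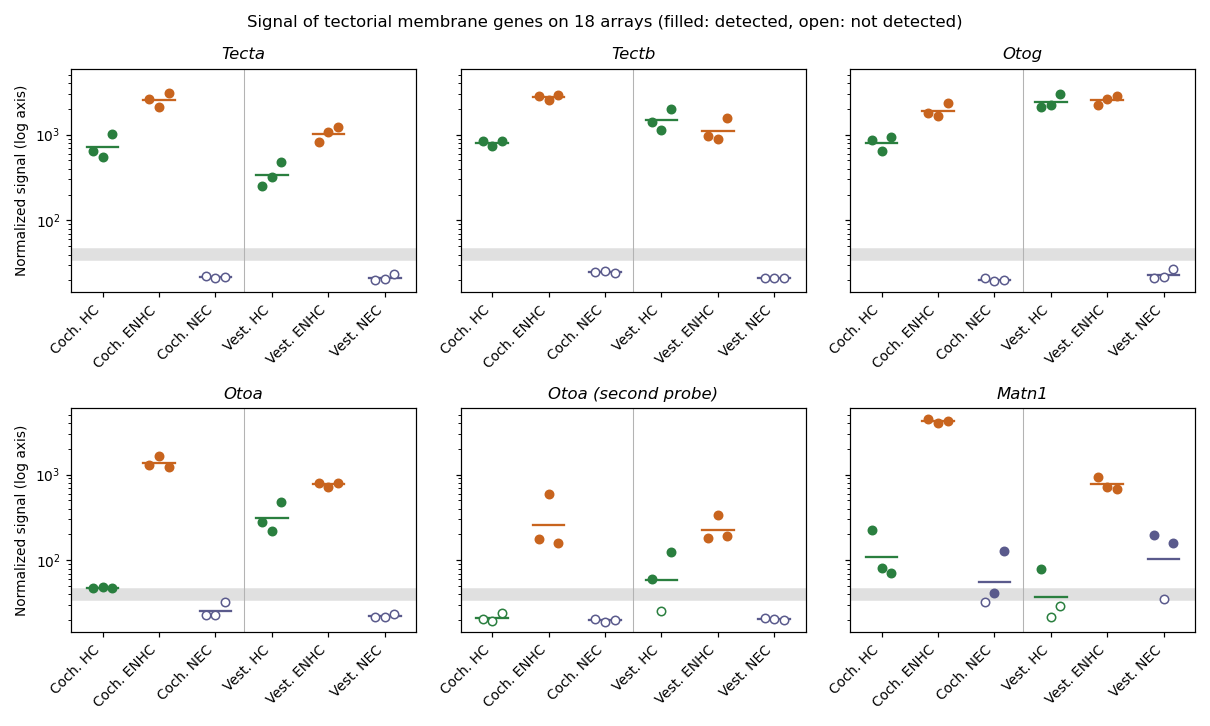
Normalized signal (log axis) of the 6 tested probes on each of the 18 arrays, by group. Filled points were detected and open points were not, short lines are geometric means of 3 arrays, and the grey band spans the detection limits of the arrays, 34.4 to 45.9. No NEC array detected Tecta, Tectb, Otog or Otoa, whereas Matn1 was detected on 4 of the 6 NEC arrays.

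Ceacam16 was not detected on any array. Its 2 probes read 19.0 to 23.4 and 20.0 to 27.1, with detection p-values of 0.259 to 0.999 and 0.0983 to 0.88. Both probes therefore stayed out of the tests. When they were tested without the filter, neither was called in any of 11 comparisons (lowest adjusted p = 0.167 and 0.81), and neither had an unadjusted p below 0.05. No statement on the level of Ceacam16 at P1 can be made from these probes beyond the detection limit.

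Tecta was highest in cochlear ENHCs. Its signals were 641, 546 and 1020 in cochlear HCs, against 2630, 2090 and 3020 in cochlear ENHCs. Vestibular signals were 255, 317 and 474 in HCs, against 827, 1070 and 1210 in ENHCs. Every HC array lay below every ENHC array of its organ. Tecta was 3.59-fold lower in cochlear HCs than in cochlear ENHCs (log2 difference -1.84 ± 0.25, adjusted p = 1.17e-05) and 3.04-fold lower in vestibular HCs than in vestibular ENHCs (-1.60 ± 0.25, adjusted p = 6.26e-05). The 2 differences were not distinguishable (difference of differences -0.24 ± 0.36, 95% interval -0.99 to 0.51, adjusted p = 0.817).

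Tectb had the same order as Tecta in the cochlea and not in the vestibular system. It read 842, 742 and 842 in cochlear HCs, against 2820, 2520 and 2920 in cochlear ENHCs, with no overlap. Among vestibular arrays it read 1390, 1140 and 2000 in HCs, against 953, 896 and 1570 in ENHCs, and the groups overlapped. Beta-tectorin mRNA was 3.40-fold lower in cochlear HCs than in cochlear ENHCs (-1.77 ± 0.22, adjusted p = 3.73e-06). Between vestibular HCs and ENHCs the difference was 0.42 ± 0.22 (95% interval -0.04 to 0.88, adjusted p = 0.169). Without vestibular ENHC replicate 3, the highest of its group, this difference was 0.67 ± 0.21 and passed the threshold (adjusted p = 0.0241). The HC-to-ENHC difference itself differed between the organs by -2.18 ± 0.31 (adjusted p = 0.000105).

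Otog was called between HCs and ENHCs in the cochlea and not in the vestibular system. Cochlear HCs had 861, 649 and 944, against 1780, 1660 and 2340 in cochlear ENHCs, so that the groups were separate and HCs lower by 2.36-fold (-1.24 ± 0.20, adjusted p = 8.46e-05). Vestibular HCs had 2130, 2190 and 2950, against 2230, 2570 and 2850 in vestibular ENHCs. The vestibular groups overlapped, with a difference of -0.08 ± 0.20 (95% interval -0.51 to 0.34, adjusted p = 0.804). The difference between the organs was -1.15 ± 0.28 (adjusted p = 0.0131), and it missed the threshold when arrays were scaled on their medians (-1.21 ± 0.40, adjusted p = 0.0846).

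Otoa showed the strongest dependence on the organ. Its brighter probe read 47.0, 48.4 and 47.1 in cochlear HCs, just above the detection limit, against 1290, 1640 and 1220 in cochlear ENHCs. Among vestibular arrays it read 277, 222 and 475 in HCs, against 794, 708 and 804 in ENHCs. HCs were lower than ENHCs in every array of both organs, by 28.9-fold in the cochlea (-4.85 ± 0.23, adjusted p = 1.19e-11) and by 2.49-fold in the vestibular system (-1.32 ± 0.23, adjusted p = 0.000226). The difference of the differences was -3.53 ± 0.33 (adjusted p = 1.45e-06). With no background correction the cochlear difference of Otoa was -3.55.

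The second Otoa probe was dimmer and noisier. It was not detected in cochlear HCs, where it read 19.9 to 24.1, against 179, 599 and 159 in cochlear ENHCs, which makes HCs at least 6.73-fold lower (adjusted p = 6.78e-06). Without cochlear ENHC replicate 2, the array at 599, the fitted difference was -2.98 in place of -3.59. In vestibular HCs it read 60.9 and 126 on 2 arrays and was not detected in replicate 2 (26.0), against 184, 337 and 190 in vestibular ENHCs (-1.96 ± 0.47, adjusted p = 0.00323). Both probes were thus lower in HCs in both organs. The second probe did not show the difference between organs past the threshold (-1.63 ± 0.66, adjusted p = 0.164), except without vestibular HC replicate 2 (-2.21 ± 0.58, adjusted p = 0.0218).

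Matn1 was brightest in cochlear ENHCs and was lower in HCs of both organs. It read 224, 80.9 and 70.8 in cochlear HCs, against 4480, 4020 and 4160 in cochlear ENHCs. In vestibular HCs it was detected on 1 array only (78.8, with 22.0 and 29.4 on the others), against 940, 724 and 677 in vestibular ENHCs. Matrilin-1 mRNA was 38.8-fold lower in cochlear HCs than in cochlear ENHCs (-5.28 ± 0.61, adjusted p = 1.61e-06). It was also lower in vestibular HCs than in vestibular ENHCs (fitted difference -4.38 ± 0.61, adjusted p = 1.71e-05), where the size of the difference depends on 2 HC arrays below the detection limit and on the added constant. With no background correction these differences were -4.50 and -2.90. A difference between the organs was not called (-0.90 ± 0.86, 95% interval -2.71 to 0.92, adjusted p = 0.672), although with no background correction this difference was -1.60 ± 0.46 and passed the threshold (adjusted p = 0.0405).

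All 6 tested probes were lower in cochlear HCs than in cochlear ENHCs, where 16.1% of all probes were lower and 15.8% higher. Between vestibular HCs and ENHCs 4 of the 6 were lower, where 15.7% of all probes were lower and 14.7% higher. The median log2 difference of the 6 probes was -2.71 in the cochlea and -1.46 in the vestibular system, beside -0.02 and -0.04 over all probes. Scaling on medians shifted the vestibular differences of all probes by a median of 0.17, and 60.6% of the called probes were then higher, against 48.3% with quantile normalization. The difference between organs was lower than 0 and called for 3 of the 6 probes (Tectb, Otog and the brighter Otoa probe), where it was called in that direction for 4.83% of all probes.

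**Figure D2:**
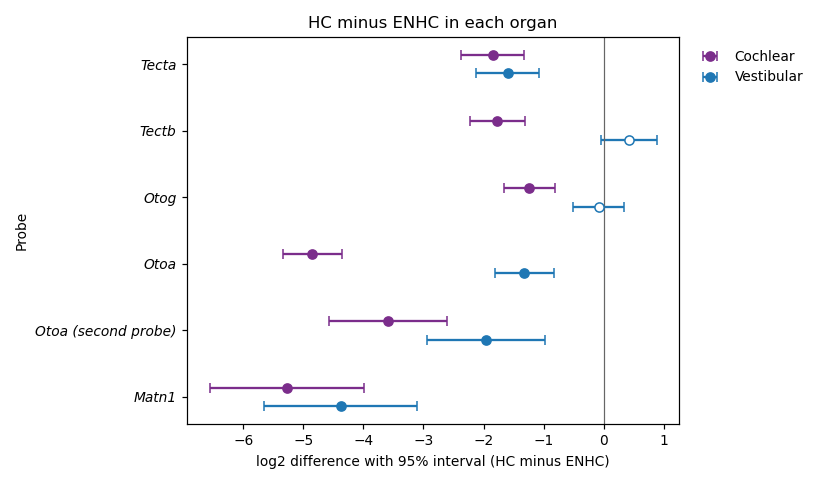
log2 difference of HCs minus ENHCs with its 95% interval for each tested probe, in the cochlea (upper marker of each pair) and in the vestibular system (lower marker). Filled markers passed an adjusted p of 0.05. All cochlear markers lie below 0, between -5.28 and -1.24, and the vestibular markers of Tectb (0.42) and Otog (-0.08) are open and lie near 0.

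The HC signals can be set against markers of the neighbouring epithelium, as a percentage of the ENHC mean after the added constant was subtracted. In the cochlea HCs held 28.1% of the ENHC signal of Tecta, 29.0% of Tectb and 42.0% of Otog, but 2.30% of Otoa and 2.60% of Matn1. In the vestibular system the values were 32.5% for Tecta, 133% for Tectb, 95% for Otog, 41.0% for Otoa and 3.58% for Matn1, the last from a group with 2 undetected arrays. The members thus fell into genes with a sizeable HC signal and genes with little of it, with Otoa on a different side in each organ.

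The markers varied widely as well. Markers of supporting and prosensory cells, among them Sox2 and Jag1, had medians of 94.8% in the cochlea (9 genes, 0.638% to 408%) and 109% in the vestibular system (9 genes, 29.5% to 491%). Markers of nonsensory epithelium had a median of 5.01% in the cochlea (12 genes, 0.254% to 235%) and 17.3% in the vestibular system (8 genes, 1.50% to 390%), while epithelial markers had medians of 19.5% and 40.6% (9 genes each). Summed over all 12 supporting and prosensory markers, the signal was 3620 to 4540 in cochlear HCs, against 4110 to 5270 in cochlear ENHCs, and 4540 to 6260 in vestibular HCs, against 2330 to 3070 in vestibular ENHCs. Over all 12 nonsensory markers, the signal was 5130 to 5760 in cochlear HCs, against 13700 to 16300 in cochlear ENHCs, and 3720 to 7080 in vestibular HCs, against 10300 to 11900 in vestibular ENHCs. In cochlear HCs 5 of the nonsensory markers were undetected on all arrays, among them Epyc (epiphycan, an extracellular proteoglycan), which read 20.7 to 34.5 in cochlear HCs and 3440 to 4120 in cochlear ENHCs. Oc90, the gene of otoconin-90, the main otoconial protein, read 26.1 to 39.0 in cochlear HCs and 2180 to 2970 in cochlear ENHCs, or 0.687%. It read 674, 702 and 1570 in vestibular HCs and 4600 to 4690 in vestibular ENHCs (20.9%). Other genes of the nonsensory list held larger shares in cochlear HCs: Fgf10 69.1%, Gjb2 93.2%, Gjb6 97.8%, Lgr5 145% and Calb1 235%. The median and the sums of this list therefore mix genes that are low in cochlear HCs with genes that are not. Of the 12 nonsensory markers, 7 were lower and 1 higher in cochlear HCs than in cochlear ENHCs, beside 16.1% and 15.8% of all probes. The part that RNA from neighbouring epithelium has in the HC signals of the members was not tested.

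**Figure D3:**
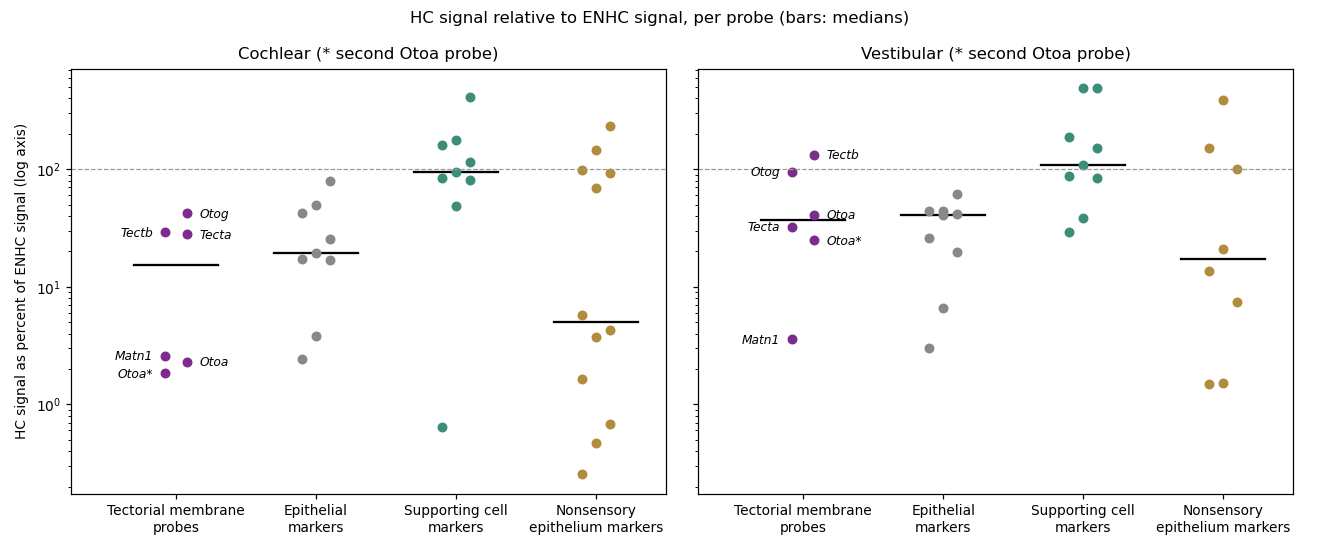
HC signal as a percentage of the ENHC signal (log axis, added constant subtracted) for the 6 tested member probes, the epithelial markers, the supporting and prosensory cell markers and the markers of nonsensory epithelium that were detected on all 3 ENHC arrays, in the cochlea (left) and the vestibular system (right). Bars are medians, and the dashed line marks equal signal. Tecta, Tectb and Otog lie between 28.1% and 42.0% in the cochlea, and the Otoa probes and Matn1 between 1.85% and 2.60%.

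NECs stood apart from both epithelial groups. Tecta, Tectb, Otog and Otoa were undetected on all 6 NEC arrays, with signals of 19.1 to 32.8 over their 5 probes. Against the detection limit of the NEC arrays, ENHCs were at least 63.8-fold higher in the cochlea for Tecta, at least 68.7-fold for Tectb, at least 47.6-fold for Otog and at least 34.3-fold for Otoa. In the vestibular system, ENHCs were at least 25.7-fold higher for Tecta, 27.7-fold for Tectb, 63.7-fold for Otog and 19.2-fold for Otoa. These bounds compare the ENHC mean with the lowest signal called detected on each NEC array.

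HCs also exceeded NECs for most probes. The bounds were at least 17.8-fold in the cochlea and 8.46-fold in the vestibular system for Tecta, 20.2-fold and 36.9-fold for Tectb, and 20.2-fold and 60.1-fold for Otog. Vestibular HCs were at least 7.72-fold above vestibular NECs for Otoa. In cochlear HCs the brighter Otoa probe was at least 1.19-fold above NECs (fitted difference 0.88 ± 0.23, adjusted p = 0.00505), a call that was lost with no background correction (adjusted p = 0.134), with the authors' table (adjusted p = 0.133) and with a larger constant (adjusted p = 0.0675). The second Otoa probe was called above NECs in vestibular HCs (at least 1.47-fold, adjusted p = 0.0158), a call lost without vestibular HC replicate 3 (adjusted p = 0.108), with no background correction or the table normalized by the authors (0.67, adjusted p = 0.102 each), with the larger constant (0.82, adjusted p = 0.088) and with no filter on dim probes (adjusted p = 0.0511).

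Matn1 was the exception in NECs. It read 41.6 and 129 on 2 cochlear NEC arrays and was not detected on the first (32.1), and it read 195 and 160 on 2 vestibular NEC arrays and was not detected on the second (35.1). Cochlear ENHCs exceeded cochlear NECs by 6.24 ± 0.61 (adjusted p = 2.63e-07, and by 6.85 without cochlear NEC replicate 3), and vestibular ENHCs exceeded vestibular NECs by 2.90 ± 0.61 (adjusted p = 0.00155, and 2.13, adjusted p = 0.0126, without vestibular NEC replicate 2). Cochlear HCs overlapped cochlear NECs (0.97 ± 0.61, adjusted p = 0.22). Vestibular HCs also overlapped vestibular NECs (-1.48 ± 0.61, adjusted p = 0.0643), and this difference passed the threshold without vestibular NEC replicate 2 (-2.25, adjusted p = 0.0044), vestibular HC replicate 1 (adjusted p = 0.0192) or cochlear NEC replicate 3 (adjusted p = 0.0457).

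Matn1 is a cartilage gene elsewhere in the body, so cartilage genes were read on the same arrays. The summed signal of 13 cartilage matrix genes was 18700 to 20900 in cochlear ENHCs and 18200 to 19800 in cochlear NECs, and 23000 to 27500 in vestibular ENHCs and 20000 to 22700 in vestibular NECs. These genes are not particular to cartilage. Col2a1, Col9a1, Col9a2, Col9a3, Col11a1 and Col11a2 are also among the tectorial membrane genes listed below, and Epyc is among the nonsensory markers above. Of the 13 genes, 2 were higher (Cnmd and Epyc) and 1 lower (Matn4) in cochlear ENHCs than in cochlear NECs. Of all probes, 9.47% were higher and 10.0% lower there. In vestibular ENHCs 3 were higher (Cnmd, Ucma and Fmod) and 1 lower (Acan) than in vestibular NECs, beside 9.44% and 10.2% of all probes. Cnmd, the gene of chondromodulin, read 1300 to 1580 in cochlear ENHCs and 27.5 to 42.1 in cochlear NECs, and Ucma read 172 to 238 in cochlear ENHCs and 258 to 276 in cochlear NECs. The collagens Col2a1, Col9a1, Col9a2 and Col9a3 were detected on all ENHC and NEC arrays. By contrast, aggrecan (Acan) was undetected on all ENHC arrays. It was detected on 1 cochlear NEC array and on all 3 vestibular NEC arrays (42.4 to 52.2). Comp, a cartilage oligomeric matrix protein gene, was detected on 1 vestibular NEC array and on no ENHC array. Both genes read near the detection limit throughout. Among HC arrays, Acan was detected in vestibular HC replicate 3 (47.4) and Comp in cochlear HC replicate 1 (36.9). The part of cartilage cells in the ENHC and NEC signals of Matn1 was not tested.

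All 6 probes were higher in ENHCs than in NECs in each organ, where 9.47% of all probes in the cochlea and 9.44% in the vestibular system were higher. Against NECs, 4 of the 6 probes were higher in cochlear HCs (21.9% of all probes) and 5 of the 6 in vestibular HCs (19.0% of all probes). Apart from that of Matn1, these probes were detected on no NEC array and passed the filter through HC and ENHC arrays alone. They could hardly be called lower than in NECs, and Otoa counts with both its probes. The counts against NECs are therefore descriptions and not a test. Between cochlear and vestibular NECs none of the 6 probes was called in either direction by limma, where 4.88% of all probes were. None had an unadjusted p below 0.05, and none was called under any of the alternatives tried. Tecta, Tectb, Otog and both Otoa probes were undetected on all NEC arrays, so this comparison could inform on Matn1 only.

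The organs differed in the levels of several members. Between cochlear and vestibular HCs, Tecta was 2.11-fold higher in the cochlea (1.08 ± 0.25, adjusted p = 0.00688), although without cochlear HC replicate 3 this was 0.81 ± 0.25 and missed the threshold (adjusted p = 0.054). Tectb was 1.82-fold lower in cochlear HCs (-0.87 ± 0.22, adjusted p = 0.0118), which missed the threshold without vestibular HC replicate 3 (-0.65, adjusted p = 0.0726) and with median scaling (-0.76, adjusted p = 0.139). Otog was 2.97-fold lower (-1.57 ± 0.20, adjusted p = 2.2e-05) and Otoa 6.48-fold lower (-2.70 ± 0.23, adjusted p = 1.98e-07) in cochlear HCs, with no overlap of the arrays for either gene. The second Otoa probe lay at the threshold (-1.45 ± 0.47, adjusted p = 0.0505), with cochlear HCs undetected, and passed it under 7 alternatives (adjusted p = 0.0041 to 0.0484), the largest difference being without vestibular HC replicate 2 (-2.03 ± 0.43).

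For Matn1 the HC arrays of the organs overlapped (1.55 ± 0.61, adjusted p = 0.121), and without vestibular HC replicate 1 the difference passed (2.09 ± 0.64, adjusted p = 0.0402). In all, 1 of the 6 probes was higher and 3 were lower in cochlear HCs, where 5.68% of all probes were higher and 6.43% lower.

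Between the ENHCs of the organs, Tectb and Otoa had the opposite sign to that in HCs, whereas Tecta, Otog and Matn1 had the same sign. Tecta was 2.49-fold higher in cochlear than in vestibular ENHCs (1.32 ± 0.25, adjusted p = 0.00161), and so was Tectb (2.49-fold, 1.32 ± 0.22, adjusted p = 0.000404). Otoa was 1.79-fold higher in cochlear ENHCs on its brighter probe (0.84 ± 0.23, adjusted p = 0.0282), a call lost on leaving out any 1 of 5 ENHC arrays (cochlear replicate 1 or 2, or any vestibular replicate, adjusted p = 0.0546 to 0.112). The second Otoa probe did not differ past the threshold (0.18 ± 0.47, 95% interval -0.80 to 1.16, adjusted p = 0.913).

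Matn1 was 5.46-fold higher in cochlear ENHCs (2.45 ± 0.61, adjusted p = 0.0136), which missed the threshold with no filter on dim probes (adjusted p = 0.0575) and with unmoderated tests (adjusted p = 0.0642). Otog was not called (-0.41 ± 0.20, 95% interval -0.84 to 0.01, adjusted p = 0.271), and its arrays overlapped. Thus 4 of the 6 probes were higher in cochlear ENHCs and none lower, where 4.17% of all probes were higher and 4.69% lower. The ENHC-to-NEC difference was larger in the cochlea for 3 of the 6 probes (Tecta, Tectb and Matn1), against 2.99% of all probes, and for Tecta and Tectb it rests on NEC values below the detection limit. The count fell to 0 without cochlear ENHC replicate 1, cochlear NEC replicate 1 or 2, vestibular ENHC replicate 2, or vestibular NEC replicate 1 or 3, and to 1 without cochlear ENHC replicate 3, cochlear NEC replicate 3, vestibular ENHC replicate 1 or vestibular NEC replicate 2.

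**Figure D4:**
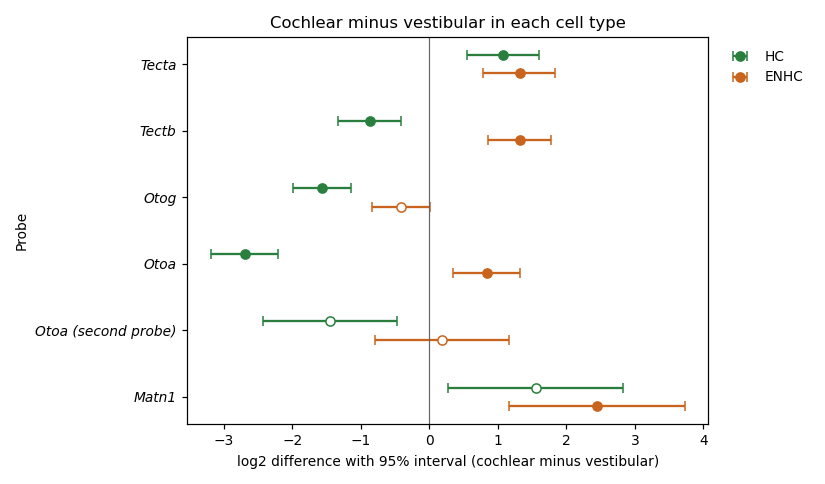
log2 difference of cochlear minus vestibular cells with its 95% interval for each tested probe, in HCs (upper marker of each pair) and in ENHCs (lower marker). Filled markers passed an adjusted p of 0.05. Tectb and Otoa lie below 0 in HCs (-0.87 and -2.70) and above 0 in ENHCs (1.32 and 0.84), whereas Tecta lies above 0 in both.

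The order of the 6 group means followed from these values. Tecta ran from cochlear ENHCs through vestibular ENHCs and cochlear HCs to vestibular HCs, and vestibular ENHCs and cochlear HCs did not differ past the threshold (0.53 ± 0.25, adjusted p = 0.112). Tectb ran from cochlear ENHCs through vestibular HCs and vestibular ENHCs to cochlear HCs, and only the step from cochlear ENHCs to vestibular HCs was called among these (0.90 ± 0.22, adjusted p = 0.00385). Otog was highest in vestibular ENHCs and HCs, followed by cochlear ENHCs (0.33 ± 0.20 below vestibular HCs, adjusted p = 0.248) and cochlear HCs.

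Each step of Otoa from cochlear ENHCs through vestibular ENHCs and vestibular HCs to cochlear HCs was called on the brighter probe. Matn1 ran from cochlear to vestibular ENHCs, and below these the means of cochlear HCs, vestibular NECs, cochlear NECs and vestibular HCs did not differ between neighbours (adjusted p = 0.939, 0.582 and 0.491). Within cochlear ENHCs, the mean of the 5 brighter member probes lay at the 96.0th to 99.5th percentile of all tested probes, whose intensities depend on probe affinity and are not compared between genes.

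Across the 18 arrays, Tectb and Otog were the most alike of the members (r = 0.98), followed by Tecta and Tectb (r = 0.961), while Matn1 was least like Otog (r = 0.435). These correlations, given as descriptions, largely reflect the 6 group means and share the arrays. Of 6203 other genes that spanned at least 1 log2 unit between groups, the most like Tecta were Tspan8 and Ripk4 (r = 0.985 each), Sfrp1 (0.98), Wnt7b (0.976) and Lama5 (0.974). Those most like Tectb were Padi2 and Spock1 (0.984 each), Spint1 (0.983), Celsr1 and Epcam (0.982 each).

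Otog was most like Cfi, Ush1c and Epcam (0.99 each), Slc27a2 (0.989) and Padi2 (0.987). Epcam, the gene of the sorting antigen CD326, thus stood among the nearest genes of both Tectb and Otog. Epcam, Tectb and Otog were all undetected on every NEC array, so the step from NECs to the CD326-sorted groups weighs heavily in these correlations. Otoa was most like Slc44a3 (0.984), Otogl (0.981), the otogelin-like gene of the same matrices, Smoc1 (0.979), Fam110c (0.967) and Meltf (0.956). Matn1 had the loosest neighbours, Jph1 (0.933), Map3k21 (0.926), Man1a (0.916), Rspo2 (0.913) and Cpz (0.912).

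Among 10 other genes of the tectorial membrane and its attachment, 7 were lower and 1 higher in cochlear HCs than in cochlear ENHCs (16.1% and 15.8% of all probes), with a median log2 difference of -2.04 beside -0.03 over all genes tested. In the vestibular system 7 were lower and 2 higher (15.7% and 14.7% of all probes, median -1.21, beside -0.03). The collagen genes Col2a1, Col5a1, Col9a1, Col9a2, Col9a3 and Col11a1 and the otogelin-like gene Otogl were the ones lower in HCs of both organs. Strc, which encodes stereocilin, the protein that links the bundle tips of outer hair cells to the tectorial membrane, was higher in HCs of both organs (4.50 ± 0.22, adjusted p = 1.36e-11 in the cochlea, and 4.12 ± 0.22, adjusted p = 4.75e-11 in the vestibular system). It read 399 to 544 in cochlear HCs and 19.7 to 22.0 in cochlear ENHCs. Strc was undetected on all ENHC and NEC arrays and passed the filter through HC arrays alone. It could therefore only be called higher in HCs, and the size of these differences rests on the added constant.

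Few of these genes were called between ENHCs and NECs. Against NECs, 1 of these 10 genes (Otogl) was higher and 2 (Emilin2 and Col5a1) were lower in cochlear ENHCs, beside 9.47% and 10.0% of all probes. In vestibular ENHCs 1 (Otogl) was higher and 1 (Emilin2) lower, beside 9.44% and 10.2% of all probes. Col2a1, the gene of the main fibrillar collagen of cartilage and of the tectorial membrane, read 3310 to 4050 in cochlear ENHCs and 3600 to 3910 in cochlear NECs. Otogl read 147 to 189 in cochlear ENHCs and was undetected on all NEC arrays, and in HCs it was detected on 1 of 3 cochlear arrays (26.5 to 38.5) and on all 3 vestibular arrays (55.4 to 91.7), the order seen for Otoa.

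Among relatives of Otoa, the mesothelin family members Mslnl and Strc were higher in HCs of both organs, opposite to Otoa. Both were undetected on all ENHC and NEC arrays and could only be called higher in HCs, so the contrast with Otoa is a description and not a test. Mslnl read 1020 to 1320 in cochlear HCs and 22.3 to 23.3 in cochlear ENHCs. Msln was lower in vestibular HCs than in vestibular ENHCs (-1.53 ± 0.25, adjusted p = 7.95e-05). Of the matrilins other than Matn1, Matn2 and Matn4 passed the filter, and Matn4 was higher in cochlear HCs than in cochlear ENHCs (1.43 ± 0.27, adjusted p = 0.000351) and lower in vestibular HCs than in vestibular ENHCs (-2.90 ± 0.27, adjusted p = 9.46e-08).

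For the otolithic membranes, otoconia and cupulae, 8 of 9 listed genes were tested. Of these, 4 were lower and 1 higher in cochlear HCs than in cochlear ENHCs, beside 16.1% and 15.8% of all probes, and 5 were lower and none higher in vestibular HCs than in vestibular ENHCs, beside 15.7% and 14.7%. Between ENHCs, 3 were lower and none higher in the cochlea than in the vestibular system, beside 4.69% and 4.17% of all probes: Zpld1, a cupula glycoprotein gene (-5.76 ± 0.37, adjusted p = 7.42e-09), Nox3, an oxidase gene needed for otoconia (-4.49 ± 0.23, adjusted p = 5.2e-10), and Otol1, the gene of the otoconial collagen-like protein otolin (-2.83 ± 0.26, adjusted p = 5.82e-07). The direction of these 3 genes was the reverse of that of Tecta, Tectb, Matn1 and the brighter Otoa probe in the same cells. Nox3, however, was undetected in every group but vestibular ENHCs. It could therefore only be called lower than in that group, and the size of its difference rests on the added constant. The Otoa call depended on single arrays, and the other tested genes of the list were not called. Of the tested member probes, Otog and the second Otoa probe were not called between the ENHCs of the organs.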

How the data were processed

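Cells of 6 groups with 3 replicates each were profiled on Illumina mouse BeadChips after RNA pre-amplification. The authors deposited non-normalized bead signal intensity and a detection p-value per probe, summarised with Bead-Studio, version not given in the sources used here, and a table of intensity values quantile-normalized by the authors (within 0.289% of quantile-normalized raw signals), which served as an alternative. In limma 3.58.1 (R 4.3.3), intensities were background-corrected by normexp from the detection p-values with an offset of 16, quantile-normalized and log2-transformed. Probes detected at p below 0.01 on at least 2 arrays were kept (24352 of 45281). Of the 45281 probes, 34885 had 1 symbol, 18 several and 10378 none in the platform annotation. A model with 1 mean per group was fitted with moderated 2-sided tests and Benjamini-Hochberg adjustment over all kept probes at 0.05. The script was tested on simulated data. The number of arrays limits the precision.

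Where a group was undetected on all its arrays, the fold is a bound against the lowest detected signal of each array ("at least"). Named are the 6 genes with all their probes and the 5 genes most correlated with each over the arrays. The members of listed gene sets with the smallest adjusted p are named as well. Further genes were named after their values were seen (Epyc, Oc90, Gjb2, Gjb6, Fgf10, Lgr5, Calb1, Acan, Comp and the further called members of lists). Lists of genes use the brightest kept probe of a gene. Members and lists were chosen with earlier results of these data known.

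Replicate numbers come from the labels. Same-numbered arrays deviated together (every correlation over 0.1) in 11 of 15 pairs of groups, HCs and ENHCs of each organ included (0.259 to 0.499 in the cochlea, 0.119 to 0.273 in the vestibular system). The 4 other pairs all involve vestibular HCs. The numbers were therefore taken as pairing the samples in those 11 pairs, although the labels do not say what same-numbered arrays share. The reported standard errors and p-values come from the fit without a replicate block. A fit with the replicate as a block was an alternative.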

Additional observations from a re-analysis of the deposited data

Results flagged for a closer look

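Results were singled out here where the same contrast differed between the organs in its own test. The HC-to-ENHC difference was lower in the cochlea than in the vestibular system for Tectb (-2.18 ± 0.31, adjusted p = 0.000105), Otog (-1.15 ± 0.28, adjusted p = 0.0131) and Otoa on its brighter probe (-3.53 ± 0.33, adjusted p = 1.45e-06). The ENHC-to-NEC difference was higher in the cochlea for Tecta (1.29 ± 0.36, adjusted p = 0.035), Tectb (1.08 ± 0.31, adjusted p = 0.0441) and Matn1 (3.34 ± 0.86, adjusted p = 0.0234). For Tecta and Tectb all NEC arrays lie below the detection limit, so these last differences rest on the ENHC values and the added constant.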

How the results depend on the processing

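Over 29 alternatives, 66 single differences of the 6 probes gave 1903 values. Of these 1830 kept direction and side of the threshold, 57 lost the call, 16 gained one and none turned round, and 50 of the 66 differences held throughout. Of 12 counts of called member probes, 11 stayed within 1.5 times. The exception was the count of probes whose ENHC-to-NEC difference was higher in the cochlea, 3 in the reported fit, which was 0 with no filter on dim probes, 0 with unmoderated tests, and 0 to 3 on leaving out 1 array at a time. The cause was not tested.

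The replicate block changed 1 call only, Matn1 between vestibular HCs and NECs (-1.48 ± 0.54, adjusted p = 0.0333, against 0.0643 without the block), a pair whose numbers did not meet the rule for pairing. Background correction enlarged log2 differences against values near the limit, as its construction implies. With no correction Tecta was 4.85 in place of 6.87 between cochlear ENHCs and NECs, with its direction and call kept. An analysis with the chip as a block was not run, because the sources used here name no chip. Signals below 34.4 to 45.9 cannot be ordered, which limits statements on Ceacam16, on Tecta, Tectb, Otog and Otoa in NECs, on the second Otoa probe in cochlear HCs and on Matn1 in vestibular HCs.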
